A study of Mus musculus with 6 samples.

Results

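Transcripts of the S100 calcium-binding protein family were followed by RNA sequencing in 6 libraries of 32D, a mouse myeloid progenitor line that depends on interleukin 3. The members were chosen by gene symbol, not by a measured value, and comprise 9 of the 47606 genes in the files: S100a8, S100a9, S100a1, S100a3, S100a4, S100a6, S100a10, S100a11 and S100a13. A further 8 S100 symbols occur in the files and are described at the end. All libraries came from cells grown in IMDM with interleukin 3 at 1 ng/mL and held in puromycin for a week after lentiviral transduction, per the labels. The empty vector group (EV, 2 libraries) carried dCas9-KRAB, a Cas9 that binds DNA without cutting it fused to a repressor domain, with an empty vector. The sg2 group (2 libraries) and the sg5 group (2 libraries) carried dCas9-KRAB with the guide of that name. The title of the series refers to an enhancer of CEBPE, which encodes a C/EBP family factor required for neutrophil maturation, and the design text calls the sg2 and sg5 cells a knock-down. Guide sequences are not used here, and the labels do not say whether the replicates came from separate cultures, so that p-values speak of the spread among these libraries alone, which may be technical.

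S100 proteins are small EF-hand proteins that bind calcium, usually as dimers, and then change how they hold partner proteins. S100a8 and S100a9 form the heterodimer calprotectin, an abundant cytosolic protein of neutrophils that sequesters zinc and manganese from microbes and acts outside the cell on the receptors Tlr4 and Ager. Several other members act inside the cell on annexins, myosin and the cytoskeleton. In the mouse most S100 genes lie in a cluster on chromosome 3.

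The labels of sg5 replicate 2 conflict: its title gives sg5, whereas its genotype and source give sg2, and the title was followed. Values without it are given for S100a8 and S100a9 with each guide and between the guides. Implied depth ran from 3.17e+07 to 4.56e+07 fragments per library. Among markers of myeloid progenitors, Ptprc (85.5 to 105 FPKM, fragments scaled by transcript length and library size), Spi1 (103 to 137 FPKM, with all guide libraries below EV) and Prtn3 (234 to 372 FPKM) were present, while Kit was listed at 0 in all 6 libraries and Cd34 stayed between 0.19 and 0.33 FPKM. Cebpe measured 42.0 and 100 FPKM in the EV libraries against 14.4 to 22.7 FPKM in the guide libraries (log2 difference -1.75, SE 0.36, limma adjusted p = 1.00, and 0.223 with the replicate number as a block). Of the 9 members 8 reached a mean of 1 FPKM over the libraries and were tested among 12929 genes. S100a8 and S100a9 would have reached it on their guide libraries alone.

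The members were matched to GENCODE M21 (GRCm38), and all 9 lie on chromosome 3. From S100a1 to S100a9 the cluster spans 184.7 kb. S100a8 (ENSMUSG00000056054, 90668978 to 90670035, plus strand) and S100a9 (ENSMUSG00000056071, 90692632 to 90695721, minus strand) point towards each other, with 22.6 kb between their ends. S100a1 (90511034 to 90514392, minus), S100a13 (90514435 to 90524581, plus), S100a3 (90560578 to 90602702, plus), S100a4 (90603771 to 90606045, plus) and S100a6 (90612882 to 90624181, plus) lie on one side of the pair. S100a11 (93520488 to 93526287, plus) and S100a10 (93555080 to 93564643, plus) lie 2852 kb from S100a8 and 28.8 kb from each other. No exons of different S100 genes overlap in that annotation.

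Promoter sequences are shown for the calprotectin genes, whose values were far lower with the guides, and for S100a4 and S100a11, whose levels followed the replicate number instead. They are from RefSeq (GRCm38.p6), run from -250 to 25 around the annotated start (position 0), and carry in capitals each match, on either strand, to a C/EBP site (TTGCNNAA), a C/EBP core (GCAAT), an ETS core bound by PU.1 (GAGGAA) or a TATA box (TATAAA). The windows are chr3:90668821-90669096 (plus strand) for S100a8, chr3:90695696-90695971 (minus strand) for S100a9, chr3:90603520-90603795 (plus strand) for S100a4 and chr3:93520246-93520521 (plus strand) for S100a11.
S100a8: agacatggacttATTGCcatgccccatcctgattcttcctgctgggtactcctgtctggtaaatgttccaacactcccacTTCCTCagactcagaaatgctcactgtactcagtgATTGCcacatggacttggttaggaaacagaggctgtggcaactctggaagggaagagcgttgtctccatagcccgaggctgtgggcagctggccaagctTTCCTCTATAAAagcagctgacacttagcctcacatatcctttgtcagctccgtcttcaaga
S100a9: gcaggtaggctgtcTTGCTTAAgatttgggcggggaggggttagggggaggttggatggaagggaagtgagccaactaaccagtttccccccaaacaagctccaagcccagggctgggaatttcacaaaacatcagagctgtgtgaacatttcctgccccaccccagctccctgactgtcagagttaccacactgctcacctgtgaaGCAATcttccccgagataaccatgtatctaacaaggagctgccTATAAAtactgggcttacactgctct
S100a4: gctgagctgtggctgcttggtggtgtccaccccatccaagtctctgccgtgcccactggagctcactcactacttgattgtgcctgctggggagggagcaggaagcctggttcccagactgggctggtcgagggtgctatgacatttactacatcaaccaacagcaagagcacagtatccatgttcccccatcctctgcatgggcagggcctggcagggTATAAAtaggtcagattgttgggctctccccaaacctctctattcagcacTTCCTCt
S100a11: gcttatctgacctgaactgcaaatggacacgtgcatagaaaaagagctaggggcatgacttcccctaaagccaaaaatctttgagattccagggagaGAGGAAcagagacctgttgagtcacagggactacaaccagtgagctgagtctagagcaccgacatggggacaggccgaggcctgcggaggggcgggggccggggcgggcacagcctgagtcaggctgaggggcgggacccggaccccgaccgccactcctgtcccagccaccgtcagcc

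The S100a8 window holds the C/EBP core at -238 to -234 and at -135 to -131, the ETS core at -170 to -165 and at -36 to -31, and the TATA box at -30 to -25. The S100a9 window holds the C/EBP site TTGCTTAA at -236 to -229, the C/EBP core at -43 to -39, and a TATA box that begins at the annotated start. The S100a4 window holds a TATA box at -31 to -26 and an ETS core at 19 to 24, and the S100a11 window an ETS core at -153 to -148 and no TATA box. No C/EBP letters of either kind were found in the S100a4 and S100a11 windows. The C/EBP core is not confined to the calprotectin genes among the members. S100a3, whose windows are not printed, holds it at -3 to 1 in the window from chr3:90584409 and at -27 to -23 in that from chr3:90599964. Over all 32851 promoter windows of 300 bases in the table, 10.8% hold the C/EBP site, 26.4% the C/EBP core, 28.3% the ETS core and 13.6% the TATA box. Among the 11 windows of the 8 members listed, 1 holds the C/EBP site, and 4 each hold the C/EBP core, the ETS core and the TATA box. The ETS core and the TATA box adjoin without overlap in S100a8, and the matches are letters only, with no binding measured.

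Both calprotectin genes had far lower values with either guide than with empty vector. S100a8 measured 50.4 and 32.2 FPKM in EV replicates 1 and 2, 0.905 and 1.39 FPKM in the sg2 libraries, and 2.47 and 2.83 FPKM in those of sg5. Every guide library lay below both EV libraries, and the sg2 libraries below the sg5 libraries. S100a9 measured 130 and 98.4 FPKM in the EV libraries, 1.07 and 2.97 FPKM in the sg2 libraries, and 3.98 and 2.47 FPKM in those of sg5. Its guide libraries again lay below both EV libraries, while the guides overlapped each other. Libraries that do not overlap and are lower with guides occurred for 2.56% of the 12929 genes tested, and among the 8 members tested for these 2.

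The EV means were 41.3 ± 12.9 FPKM for S100a8 and 114 ± 22.2 FPKM for S100a9 (SD, n = 2), and the guide means 1.90 ± 0.900 and 2.63 ± 1.21 FPKM (SD, n = 4). The guide mean was 4.59% of the EV mean for S100a8 and 2.30% for S100a9, a level 21.8-fold and 43.5-fold lower. On the log2(FPKM + 1) scale, which understates changes of low values, the differences were -3.89 (SE 0.34) for S100a8 and -5.05 (SE 0.35) for S100a9. Among the 12929 genes tested S100a9 had the difference of largest size in either direction, and S100a8 ranked 4. In limma the unadjusted p was 6.27e-06 for S100a9 and 2.47e-05 for S100a8, and neither passed after Benjamini-Hochberg adjustment (adjusted p = 0.0811 and 0.106). By that rule 0% of all genes passed, with 169 genes at an unadjusted p under 0.05. With the replicate number as a block S100a9 fell (limma adjusted p = 0.0445) and S100a8 missed the threshold (0.0994), where 0.0387% of genes passed. S100a9 passed without sg2 replicate 1 as well (0.0354, and 0.00327 with the block), and its blocked call was lost when any of the other libraries was left out.

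Few sequenced fragments lie behind the guide values. Fragments were worked out on the longest annotated transcript of each gene, 498 nt for S100a8 and 519 nt for S100a9. With an assumed fragment length of 200 nt, S100a8 corresponds to about 487 and 439 fragments in EV and to between 11 and 33 fragments in each guide library. S100a9 corresponds to about 1343 and 1436 fragments in EV and to between 14 and 40 in each guide library. The exact 95% Poisson interval of S100a8 reached at most 3.95 FPKM in a guide library, against a lower bound of 29.3 FPKM in EV. That of S100a9 reached at most 5.37 FPKM in a guide library, against a lower bound of 93.4 FPKM in EV. Both genes thus remained above the limit of 3 fragments, which is at most 0.317 FPKM for S100a8 and 0.296 FPKM for S100a9, and these intervals cover counting error only.

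**Figure D1:**
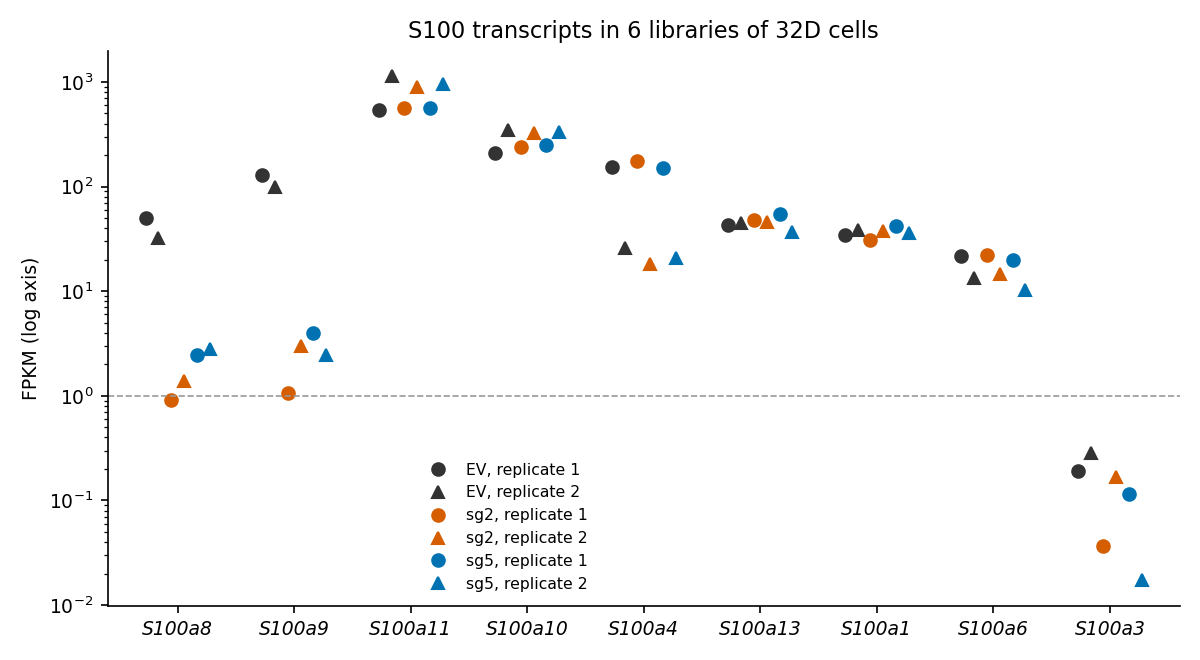
FPKM of the 9 S100 genes (log axis) in each of the 6 libraries, with colour for the group, circles for replicate number 1, triangles for number 2 and a dashed line at 1 FPKM. S100a8 and S100a9 lie between 32.2 and 130 FPKM in the EV libraries against 0.905 to 3.98 FPKM in the guide libraries, while S100a4, S100a10 and S100a11 separate by replicate number within every group.

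With each guide library set against EV of its own replicate number, S100a8 stood at 1.80% and 4.31% with sg2 and at 4.89% and 8.78% with sg5. S100a9 stood at 0.826% and 3.02% with sg2 and at 3.07% and 2.51% with sg5. Cebpe stood at 34.3% and 18.6% with sg2 and at 46.2% and 22.6% with sg5. Each EV library served for both guides in these 4 matched pairs, which are thus not independent. In each pair both calprotectin genes were at a lower percentage than Cebpe. Their order among the libraries differed from that of Cebpe, since sg2 replicate 1 was the lowest library for S100a8 and S100a9 relative to its EV and sg2 replicate 2 for Cebpe.

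The ratio of S100a9 to S100a8, both per length, was 2.58 and 3.06 in EV, 1.19 and 2.14 with sg2, and 1.62 and 0.876 with sg5. By these values S100a9 was the higher of the calprotectin transcripts in 5 of 6 libraries, and every guide library had a lower ratio than both EV libraries. The exact Poisson intervals of S100a8 and S100a9 were apart in both EV libraries but overlapped in every guide library. In sg2 replicate 2 they were 0.801 to 2.27 FPKM for S100a8 and 2.06 to 4.08 FPKM for S100a9. With guides the order of the transcripts is thus not resolved by these intervals, and the counting error of the ratio was not worked out. No test was made on this ratio.

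Markers of neutrophils were mostly lower with guides too. Of the 12 neutrophil markers 6 were above the filter, 5 of these had negative log2 differences, and in 3 (Ngp, Ltf and Lcn2) all guide libraries lay below both EV libraries. Such a pattern occurred for 2.56% of all genes tested. Csf3r and Itgam overlapped between the groups. Cxcr2 was higher in each guide library than in EV of the same number, with 4.89 and 8.58 FPKM in the EV libraries against 5.65 to 11.4 FPKM in the guide libraries. Ngp measured 67.7 and 331 FPKM in the EV libraries against 1.51 to 27.0 FPKM in the guide libraries, and Lcn2 190 and 202 FPKM in the EV libraries against 103 to 177 FPKM in the guide libraries. Ltf measured 7.67 and 13.9 FPKM in the EV libraries against 0.718 to 2.70 FPKM in the guide libraries. The summed level of the list was 328 and 663 FPKM in the EV libraries against 204 to 251 FPKM in the guide libraries. Retnlg, a marker of mature neutrophils, was listed at 0, and Camp, Mmp8, Mmp9, Ly6g and Fpr1 had means below 1 FPKM. Monocyte and macrophage markers summed to between 99.3 and 151 FPKM in the EV libraries against 85.8 to 169 FPKM in the guide libraries, with 3 of 9 above the filter. Eosinophil markers, 2 of 5 above the filter, summed to 81.0 and 262 FPKM in the EV libraries against 12.2 to 67.8 FPKM in the guide libraries, a sum made up mostly of Epx. Epx, which encodes eosinophil peroxidase, measured 75.5 and 253 FPKM in the EV libraries and from 8.77 to 61.6 FPKM with guides, while Siglecf overlapped between the groups. Mast cell and basophil markers, 8 of 8 above the filter, lay on the other side: all but 1 had positive log2 differences. Il4 and Ms4a2 were higher in every guide library than in both EV libraries, a pattern found for 2.54% of all genes tested. Among number 1 libraries the sum of the list was 1560 FPKM for EV against 2271 FPKM (sg2) and 3181 FPKM (sg5). Among number 2 libraries it was 3098 FPKM against 3441 FPKM (sg2) and 3654 FPKM (sg5). The sum was thus higher with guides in 4 of 4 pairs, in which each EV library served for both guides. That sum was made up mostly of Fcer1a, with 1081 and 2412 FPKM in the EV libraries against 1733 to 2767 FPKM in the guide libraries. In sg2 replicate 2 Mcpt8 stood at 72.9% and Hdc at 52.7% of EV replicate 2, with the others of the list above it. In sg5 replicate 2 Hdc stood at 61.2% of EV replicate 2, again with the others above it. The sums of the remaining lists overlapped between guides and EV: myeloid progenitor markers (8 of 10 above the filter) ran from 687 to 1020 FPKM over the 6 libraries, erythroid and megakaryocyte markers (5 of 7) from 155 to 228, and lymphoid markers (2 of 8) from 21.5 to 116. None of 6 fibroblast and epithelium markers was above the filter. The part of neutrophil, eosinophil, mast cell or basophil markers in the S100a8 and S100a9 difference was not tested, and in these bulk libraries fewer cells of a type and less RNA per cell cannot be told apart.

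The guides were then taken separately, each against the same EV libraries. For sg2 the log2 difference was -4.28 (SE 0.28) for S100a8 and -5.31 (SE 0.39) for S100a9 (limma adjusted p = 0.114 and 0.132), where 0.00773% of genes passed and 0.0232% with the block. For sg5 it was -3.50 (SE 0.28) and -4.78 (SE 0.39), with an adjusted p of 0.224 for both in limma, where 0% of genes passed and 0.0155% with the block. Neither gene passed for either guide with the block. S100a9 had the difference of largest size among all genes tested in each of these comparisons, and S100a8 ranked 4 with sg2 and 9 with sg5. Without the second sg5 library the sg5 differences were -3.57 for S100a8 and -4.52 for S100a9. Counting that library as sg2 gave sg2 differences of -3.99 and -5.22.

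The difference between the guides was small beside that from EV. For S100a8 sg5 exceeded sg2 by 0.77 (SE 0.28) on the log2 scale, with a limma p of 0.0383 before and 1.00 after adjustment. For S100a9 sg5 exceeded sg2 by 0.54 (SE 0.39), with an adjusted limma p of 1.00. Without sg5 replicate 2 these values were 0.70 and 0.80, and with that library counted as sg2 they were 0.42 and 0.70. Between guides 0% of genes passed, and 111 had an unadjusted p under 0.05. S100a9 in sg2 replicate 1 set much of its own value: without that library the difference between guides was 0.07. The exact 95% Poisson interval for S100a9 in that library, 0.606 to 1.86 FPKM, ended below the interval of sg2 replicate 2, which began at 2.06 FPKM.

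The 6 other members above 1 FPKM showed no such difference. S100a11, a partner of annexin A1, had the highest level of the family, with only 0.980% of tested protein-coding genes at or above its mean of 777 FPKM. It measured 541 and 1141 FPKM in the EV libraries, 563 and 893 FPKM in the sg2 libraries, and 562 and 964 FPKM in those of sg5. The guide libraries lay within the EV range. S100a10, which binds annexin A2 and, unlike its relatives, does not respond to calcium, measured 210 and 348 FPKM in the EV libraries, 237 and 325 FPKM in the sg2 libraries, and 248 and 332 FPKM in those of sg5. Here too every guide library lay between the EV libraries.

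S100a4, which binds nonmuscle myosin and is known for its part in cell motility, measured 155 and 25.8 FPKM in the EV libraries, 174 and 18.1 FPKM in the sg2 libraries, and 150 and 20.6 FPKM in those of sg5. S100a6, or calcyclin, measured 21.6 and 13.3 FPKM in the EV libraries, 21.9 and 14.7 FPKM in the sg2 libraries, and 19.7 and 10.3 FPKM in those of sg5. For both genes guide and EV libraries overlapped, and the higher library of each group was that of number 1. S100a13, a protein of nonclassical secretion, ranged from 43.3 to 44.7 FPKM in EV and from 36.7 to 54.9 FPKM with guides. S100a1, best known from heart muscle, ranged from 34.4 to 38.6 FPKM in EV and from 31.1 to 42.2 FPKM with guides. The guide ranges of these last genes enclosed their EV ranges.

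In the test of guides against EV the log2 differences of these 6 genes ran from -0.17 (S100a4, SE 1.23) to 0.06 (S100a10, SE 0.26), 3 positive and 3 negative, with a median of -0.04 beside -0.00463 over all genes tested. None of them passed limma without or with the block, and none had an unadjusted p under 0.05 in either fit. The limma adjusted p without the block was 1.00 for each. Without the block, S100a4 had 1.10 when EV replicate 1 was left out and -1.44 when EV replicate 2 was. Each of these fits leaves EV with 1 replicate number only, and S100a4 differed between the numbers in every group. With the block its difference was -0.17 (SE 0.13), and 0.061 when EV replicate 2 was left out.

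S100a3, a gene of hair follicle cells, stayed below the filter, between 0.0172 and 0.285 FPKM, and was not tested. It measured 0.192 and 0.285 FPKM in the EV libraries, 0.0367 and 0.166 FPKM in the sg2 libraries, and 0.116 and 0.0172 FPKM in those of sg5. On the longest of its 5 annotated transcripts (3143 nt) its values correspond to between 2 and 38 fragments per library, and a shorter transcript would mean fewer. By that length 1 sg5 library was below the limit of 3 fragments. The EV libraries were the highest, by a margin that the counting error of the nearest guide library spans.

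**Figure D2:**
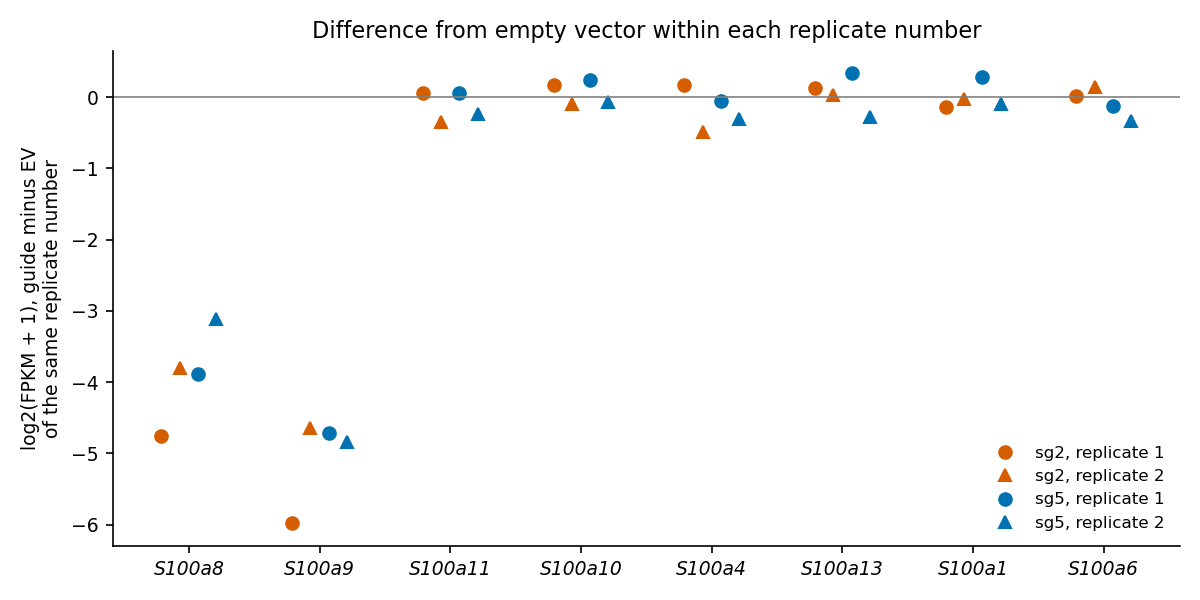
Difference in log2(FPKM + 1) between each guide library and the EV library of the same replicate number, for the 8 S100 genes tested (colour for the guide, circles for number 1, triangles for number 2, line at 0). All 4 points of S100a8 and S100a9 lie between -5.98 and -3.12, and those of the other genes between -0.49 and 0.34.

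Taken as a group per library, the calprotectin genes and the other members lay close together in EV and far apart with guides. The mean log2(FPKM + 1) of S100a8 and S100a9 was 6.36 and 5.84 in EV, 0.99 and 1.62 with sg2, and 2.05 and 1.87 with sg5. The mean of the 6 other members was 6.53 and 6.33 in EV, 6.60 and 6.20 with sg2, and 6.66 and 6.11 with sg5. Relative to EV of the same number the calprotectin mean differed by -5.37 and -4.22 with sg2 and by -4.30 and -3.98 with sg5. The mean of the others differed by 0.07 and -0.13 with sg2 and by 0.12 and -0.22 with sg5. The calprotectin genes made up 15.2% and 7.498% of the summed FPKM of the 9 members in EV, and between 0.184% and 0.596% with guides. These means are a description, with no test.

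Of the 6 other members tested, 4 differed between the replicate numbers, a comparison chosen after seeing the data. What the number marks is not said in the labels. S100a4 in number 1 was 5.997-fold higher than in number 2 in EV, 9.64-fold with sg2 and 7.27-fold with sg5. Its log2 difference, number 2 minus number 1, was -2.85 (SE 0.13, limma adjusted p = 0.000348, fitted with the replicate number as a block), and 0.224% of genes tested had a difference of at least that size. S100a11 in number 2 was 2.11-fold higher in EV, 1.59-fold with sg2 and 1.72-fold with sg5 (log2 difference 0.84, SE 0.09, limma adjusted p = 0.00152). S100a10 was 1.66-fold, 1.37-fold and 1.34-fold higher in number 2 (log2 difference 0.53, SE 0.08, limma adjusted p = 0.00371). S100a6 was lower in number 2 (log2 difference -0.69, SE 0.13, limma adjusted p = 0.00930), a call lost without either EV library (0.0566 and 0.0568).

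These 4 of 8 members passing stand beside 49.3% of all genes tested between the numbers, so that the count is near the background. S100a8 and S100a9 did not pass between the numbers, with log2 differences of -0.05 (SE 0.33) and 0.01 (SE 0.34) and a limma adjusted p of 0.902 and 0.986. Without sg2 replicate 1 the S100a9 value was -0.41 and passed (limma adjusted p = 0.0381). S100a13 (-0.19, SE 0.13) and S100a1 (0.07, SE 0.12) did not pass either. Genes shorter than 200 nt held 6.77% to 9.67% of the summed FPKM in number 1 and 15.4% to 21.5% in number 2. After rescaling to genes of 200 nt or longer S100a4 had -2.78, S100a6 -0.63, S100a10 0.60 and S100a11 0.90, and all 4 passed.

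**Figure D3:**
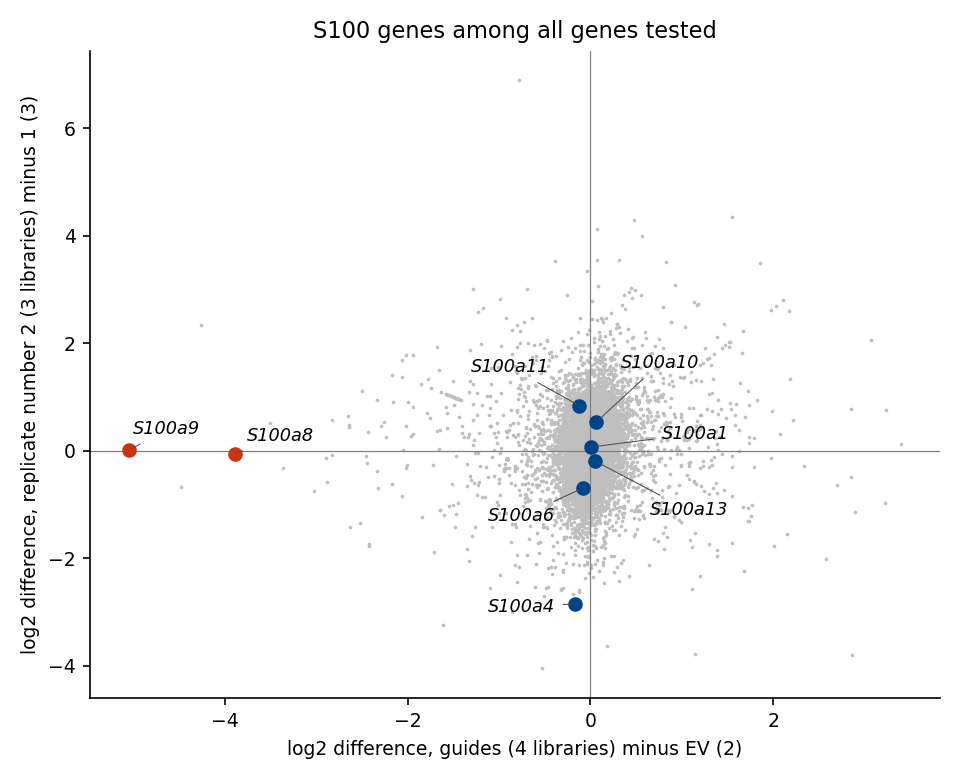
Log2 difference between guide and EV libraries (horizontal axis) and between replicate numbers 2 and 1 (vertical axis) for all 12929 genes tested (grey), with S100a8 and S100a9 in red and the other S100 genes in blue. S100a9 and S100a8 lie at -5.05 and -3.89 on the first axis and near 0 on the second, and S100a4 lies at -0.17 and -2.85.

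Genes near S100a8 and S100a9 showed no such difference. Of 28 other protein-coding genes within 500 kb of the pair, 17 were above the filter, 7 with positive and 10 with negative log2 differences (median -0.01, beside -0.00463 over all genes). All 17 lie on the S100a6 side of S100a8, and none passed limma without or with the block. The nearest tested gene, S100a6, lies 44.8 kb from S100a8, and its guide libraries overlapped EV. S100a5, a further S100 gene 57.2 kb away, had the lowest value of the 17 at -0.52 (SE 0.29, limma adjusted p = 1.00). With the replicate block its SE was 0.15, with a limma p of 0.0168 before and 0.797 after adjustment. Of the 17 only S100a5 had an unadjusted p under 0.05 in that fit. It measured 14.8 and 11.4 FPKM in the EV libraries, 12.7 and 7.80 FPKM in the sg2 libraries, and 9.98 and 5.89 FPKM in those of sg5, lower than the EV library of the same number in 4 of 4 guide libraries. Slc27a3, an acyl-CoA synthetase gene 279.0 kb away, measured 8.61 and 7.71 FPKM in the EV libraries against 8.82 to 13.3 FPKM in the guide libraries, with no overlap (log2 difference 0.31, SE 0.19, limma adjusted p = 1.00). Libraries that do not overlap and are higher with guides occurred for 2.54% of genes.

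**Figure D4:**
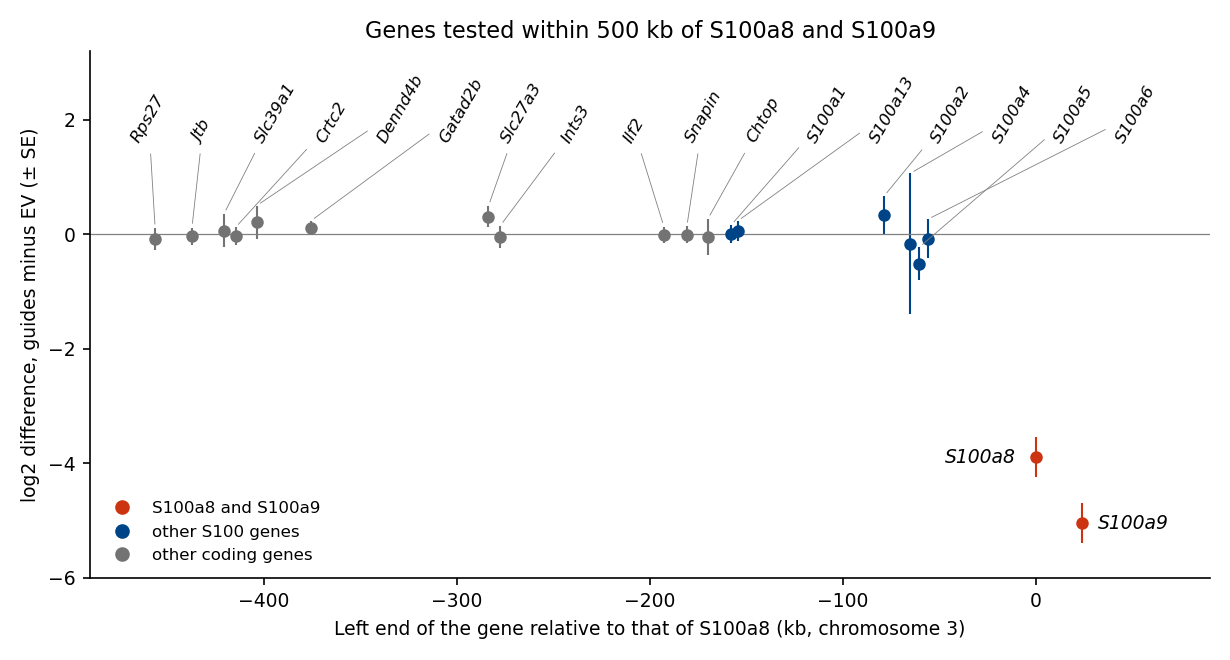
Log2 difference between guide and EV libraries (± SE) for the 17 genes tested within 500 kb and for S100a8 and S100a9, by the position of the left end of each gene relative to S100a8 on chromosome 3. The calprotectin genes lie at -3.89 and -5.05, and the others between -0.52 and 0.33.

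Partners and receptors of S100 proteins, a list of 26 genes of which 20 were above the filter, showed no call in limma without or with the block. Unadjusted p was under 0.05 for 0 of the 20 without the block and for 1 with it. With the block 739 of all 12929 genes tested had such a p. Of these, 7 had positive and 13 negative log2 differences, with a median of -0.05 beside -0.00463 over all genes tested. Cacybp, the calcyclin-binding protein, had 66.0 and 54.2 FPKM in the EV libraries against 48.0 to 58.9 FPKM in the guide libraries (log2 difference -0.18, SE 0.15). Bsg, which encodes the S100a9 receptor basigin, had 405 and 192 FPKM in the EV libraries against 303 to 430 FPKM in the guide libraries (0.37, SE 0.33). Anxa11, an annexin gene, had 40.7 and 47.2 FPKM in the EV libraries against 45.1 to 50.8 FPKM in the guide libraries (0.09, SE 0.13). In all 3 the groups overlapped.

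EF-hand calcium sensors outside the family, 31 genes of which 27 were above the filter, had 10 positive and 17 negative log2 differences and a median of -0.01 beside the same -0.00463. None passed limma without or with the block. An unadjusted p under 0.05 was found for 0 of them without the block and for 1, Capn1, with it. Capn1, a calpain subunit gene, had 28.1 and 18.7 FPKM in the EV libraries against 21.6 to 37.0 FPKM in the guide libraries (0.24, SE 0.29). Each guide library lay above the EV library of the same number. With the block the Capn1 SE was 0.08, with a limma p of 0.0255 before and 0.813 after adjustment. Stim1, the calcium sensor of the endoplasmic reticulum, had 21.9 and 26.8 FPKM in the EV libraries against 21.5 to 23.6 FPKM in the guide libraries (-0.10, SE 0.13). Sdf4, a calcium-binding protein of the Golgi, had 84.0 and 87.5 FPKM in the EV libraries against 86.3 to 94.0 FPKM in the guide libraries (0.07, SE 0.11).

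The genes most like S100a8 and S100a9 over the 6 libraries were each other and short noncoding RNAs. Likeness was the root mean square difference of log2(FPKM + 1), centred per gene, which was 0.62 between S100a8 and S100a9. For S100a8 the predicted microRNA gene Gm23416 (0.58) and the predicted small nucleolar RNA gene Gm22711 (0.59) were nearer than S100a9, and Gm25551 (0.73) and Gm22639 (0.74) followed. For S100a9 the order was S100a8, Gm22711 (0.66), Gm22639 (0.99), Gm25551 (0.99) and Gm23416 (1.08). Gm22711, Gm25551 and Gm23416 had 0 listed in each of the 4 guide libraries, and Gm22639 had a guide mean of 0.595 FPKM. These 4 noncoding genes thus passed the filter through their EV values. Unlike S100a8 and S100a9, they would not have reached it on their guide libraries alone. They are 95 to 133 nt long, shorter than the assumed fragment length, so that their FPKM and their likeness to the pair are uncertain. No protein-coding gene other than the calprotectin partner was among the 5 nearest of either.

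Apart from S100a5, the S100 genes outside the members were low or listed at 0. S100a2, a gene of epithelial cells, measured 1.30 and 0.744 FPKM in the EV libraries, 1.09 and 2.82 FPKM in the sg2 libraries, and 1.10 and 1.38 FPKM in those of sg5 (log2 difference 0.33, SE 0.34, limma adjusted p = 1.00). S100a14, S100a16, S100a7a and S100b lay between 0 and 0.175 FPKM. S100g and S100z were listed at 0 in all 6 libraries. Together with S100a5 these are the 8 other S100 symbols in the files.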

How the data were processed

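RNA was sequenced from 6 libraries prepared with a TruSeq RNA kit, per the labels' protocols. The authors deposited one table per library with FPKM per gene, so these values are not counts, and the submitters' processing notes name kallisto 0.43.0 and DESeq2, with builds GRCm38 and mm10. The annotation behind the FPKM is not given in the sources used here. FPKM were taken as log2(FPKM + 1). Genes averaging 1 FPKM or more across libraries, 12929 in all, entered limma 3.58.1 (R 4.3.3, trended variance), with Benjamini-Hochberg adjustment over all of them and a threshold of 0.05. Guides (4 libraries) were compared with EV (2 libraries), and sg2, sg5 and EV in a fit of 3 groups. Other steps used matplotlib 3.10.9, scipy 1.17.1, pandas 2.3.3 and numpy 2.4.6 under Python 3.11.15.

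The replicate numbers pair the libraries by the data, not by a statement in the labels: differences between numbers 1 and 2 correlated across genes at 0.583 to 0.611 between groups. Implied fragments came from the spacing of low FPKM of 752 genes longer than 4000 nt, with an assumed fragment length of 200 nt, and 91.9% to 97.8% of low values lay within 0.15 of a whole number. Gene positions were matched by identifier to GENCODE M21 for 47187 of 47606 genes. On simulated data for guides against EV over 12929 genes, 32 of 100 genes changed by 1 on the log2 scale and 91 of 100 changed by 3 were recovered with 0 false calls, and with the block 83, 96 and 7. The changed genes were all lowered and drawn from genes of higher level, with independent normal noise. Benjamini-Hochberg adjustment depends on how many genes truly change, which is unknown for these libraries, so those shares are not the power of the tests reported here. Alternatives were the pseudocount, the filter, rescaling to genes of 200 nt or longer, quantile normalization, the replicate block, the group of the second sg5 library and leaving out each library. Genes named are the 9 members, the other S100 genes, Cebpe, the 5 genes nearest to each of S100a8 and S100a9, and, per list, the 3 genes with the lowest p and any past the threshold. Ngp, Ltf, Lcn2 and the other markers come from the marker lists. The members and lists were chosen with earlier results of these data known, and the promoter motifs were chosen after seeing the data.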

Additional observations from a re-analysis of the deposited data

Results flagged for a closer look

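S100a2 in the guide libraries had 1 library far from the others, sg2 replicate 2 (2.82 FPKM). It was separated from the nearest by 0.833 of the range of the 4 guide libraries. That is just past Dixon's 95% critical value, which chance passes in about 1 of 20 groups. The longest annotated S100a2 transcript is 315 nt, and no library exceeded that 2.82 FPKM. Few fragments lie behind such values, and their counting error was not worked out. Both sg2 libraries lay above the EV library of the same number for S100a6 and both sg5 libraries below it, and sg5 minus sg2 was -0.31 on the log2 scale (limma adjusted p = 1.00). The labels of sg5 replicate 2 conflict. Without the replicate block the value was 0.12 when that library was left out and 0.37 with it counted as sg2. S100a6 differed between the numbers, and these fits do not balance them. With the block the value was -0.18 without sg5 replicate 2 and -0.45 without sg5 replicate 1. Guide libraries of number 1 lay above their EV library and those of number 2 below it for S100a10 and S100a11, with differences between the numbers of -0.29 and -0.35. For S100a2 the order was the opposite, with a difference of 0.93. The interaction of guide and number, chosen after seeing the data, gave a limma adjusted p of 1.00 for these 3 genes, and 0 of 12929 genes passed.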

How the results depend on the processing

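S100a8 and S100a9 kept a negative difference between guides and EV under all 20 settings, from -4.46 to -3.46 and from -5.51 to -4.73 (limma adjusted p from 0.0994 to 0.456 and from 0.00327 to 0.386). S100a8 passed in 0 of the 20 and S100a9 in 3. Among the members the replicate block changed the guides against EV call of S100a9 (-5.05, adjusted p = 0.0445) and no other. For sg2 against EV, S100a8 passed after quantile normalization (-4.25, limma adjusted p = 0.0488). The mean of S100a8 and S100a9 minus that of the other 6 members, relative to EV, was -4.43, and from -4.94 to -4.41 under other pseudocounts and scalings.

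Genes passing between guides and EV numbered 0, 6 with no filter, 5 with the replicate block, and 0 to 2 when 1 library was left out. For sg2 the count was 1, 0 with no filter, 0 with a mean of at least 5 FPKM, 2 after quantile normalization, 3 with the replicate block, 0 with the second sg5 library counted as sg2, and 0 to 1 without 1 library. For sg5 it was 0, 18 with no filter, 2 with the replicate block and 0 without any 1 library. Between guides it was 0, and 23 with no filter.

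Signs near 0 were not stable. Quantile normalization gave -0.0097 for S100a1 between guides and EV and -0.038 for S100a9 between numbers, and a pseudocount of 0.1 gave 0.036 for S100a8 between numbers. Leaving out 1 library without the block, guides minus EV ran from -0.075 to 0.084 (S100a1), -0.30 to 0.42 (S100a10), -0.66 to 0.42 (S100a11), -0.033 to 0.16 (S100a13), -1.44 to 1.10 (S100a4) and -0.41 to 0.25 (S100a6). With the replicate block the signs that turned were those of S100a1 (-0.062 without EV replicate 1, -0.0015 without sg2 replicate 2, -0.098 without sg5 replicate 1), S100a4 (0.061 without EV replicate 2), S100a6 (0.026 without sg5 replicate 2), S100a10 (-0.083 without EV replicate 1), S100a11 (0.057 without EV replicate 2) and S100a13 (-0.12 without EV replicate 1, -0.016 without sg5 replicate 1). Between numbers they were those of S100a1 (-0.041 without sg2 replicate 1), S100a8 (0.23 without either EV library, 0.058 without sg2 replicate 2, 0.11 without sg5 replicate 1) and S100a9 (-0.41 without sg2 replicate 1, -0.11 without sg2 replicate 2). Between guides S100a9 turned to -0.16 without sg2 replicate 1. For the 6 other members the sign changed in 21 of 120 values for sg2 against EV, 19 of 120 for sg5 against EV and 23 of 120 between guides, and 0 passed. The cause was not tested.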
